A study of Mus musculus with 6106 samples.

Results

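The 42 genes described here carry out DNA replication in S phase and chromosome segregation in G2 and mitosis. They were taken from a list of cell cycle genes by name, not by their values, out of 23725 genes in the count table. All 42 were in the table and 41 had at least 20 UMIs (unique molecular identifiers, each standing for 1 captured transcript) over the 3 libraries, against 10113 genes in all. Aurka, the mitotic kinase of the centrosome, had 17 UMIs and was left out of the ratios. Of the 41 measured genes 15 belong to an S-phase class, 19 to a mitotic class and 7 to a class of broadly expressed genes that cycling cells make more of.

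The cells were regulatory T cells (Tregs) from the spleen of male mice aged 10 months, on a B6 background with a pair of reporter alleles, Nr4a1-Gfp and, at the Foxp3 gene, Foxp3-Ires-Thy1.1. Every group carried both reporters, and every cell had been sorted as DAPI-, TCRb+, CD4+ and positive for the Foxp3 reporter. The groups are 3 windows of Nr4a1-GFP fluorescence, which follows T cell receptor signalling: GFPlow is the 0 to 20% window, GFPmed the 40 to 60% window and GFPhigh the 80 to 100% window. Each window is 1 inDrops library, a droplet method for single cells, and the labels do not give the number of mice behind it.

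Resting T cells stay outside the cell cycle. When a cell commits to divide, E2F transcription factors switch on the genes for the replication licensing helicase (the Mcm proteins), for nucleotide supply and for the sliding clamp Pcna. Later, the B-Myb, FOXM1 and DREAM complexes act on the genes for cyclins A and B, the kinase Cdk1 and the spindle proteins, through a promoter element called CHR and through CCAAT boxes bound by NF-Y. Mitotic transcripts are degraded as cells return to G1, so they mark few cells at any time, whereas histone variant, tubulin and condensin transcripts are also found in cells that do not divide.

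With 1 library per window there were 0 replicates, so no test between windows was made. The 5435 cells with at least 500 UMIs were used. They held 2435870, 2512277 and 2270376 UMIs, and GFPmed cells were read the most deeply at the median. Levels are a gene's UMIs per 1000000 of its library (UPM), and where 3 levels follow each other they are those of GFPlow, GFPmed and GFPhigh in that order. A high-to-low ratio is GFPhigh over GFPlow, a medium-to-low ratio GFPmed over GFPlow and a high-to-medium ratio GFPhigh over GFPmed, and a log2 ratio with no such word is high-to-low. Brackets hold 95% intervals (exact Poisson for levels, exact conditional binomial for ratios, exact Clopper-Pearson for shares of cells), which cover counting error only. Cell barcodes were shared by 33 pairs of cells between GFPlow and GFPmed, 35 between GFPlow and GFPhigh and 29 between GFPmed and GFPhigh. The sort was visible in the transcripts: Nr4a1 was at 35.7, 92.7 and 340.5 UPM, while Foxp3 was at 389.6, 317.2 and 359.0 UPM. Of the used cells 2.999% had at least 2 UMIs of markers of other cell types (B, plasma, erythroid, myeloid, CD8 or NK cells, or platelets): 47 cells in GFPlow, 69 cells in GFPmed, 47 cells in GFPhigh. Among them were 13 cells with 10 or more UMIs of erythroid markers (5 GFPlow, 6 GFPmed and 2 GFPhigh cells), and these bear on many results below.

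The letters in the members' promoters differed between the classes. RefSeq promoter windows on GRCm38.p6 (mm10), 250 bases before to 50 bases after the start, were matched for 35 of the 42 genes. The letters searched on both strands were TTTGAA or TTCGAA for CHR, CCAAT for the CCAAT box, and TTTGGCGC, TTTCCCGC, TTTCGCGC or TTTGCCGC for E2F. Matches can overlap each other, as the E2F matches of Mcm5 and a pair of the CCAAT matches of Ube2c do. CHR letters were in 11 of 16 mitotic windows (68.8%), 2 of 14 S-phase windows (14.3%) and 21.7% of all 27025 genes with a window. E2F letters were in 7 of 14 S-phase windows (50.0%), 1 of 16 mitotic windows (6.25%), that of Cdk1, and 2.605% of all genes. CCAAT letters were in 14 of 16 mitotic windows (87.5%), 10 of 14 S-phase windows (71.4%) and 41.1% of all genes. With only the bases before the start, CHR was in 6 mitotic windows against 19.6% of all genes, and E2F in 4 S-phase windows against 2.16%. A match is a run of letters and not a measured binding site.

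The windows printed here are the 3 mitotic members with CHR letters and the 3 S-phase members with E2F letters whose UMIs lay in the fewest cells for their number, and H2afz, the member with the highest high-to-low ratio. Capitals mark the CHR, CCAAT and E2F letters on either strand, and each run reads 5′ to 3′ along the gene. Their positions are Mki67 chr7:135716330-135716629 (minus strand), Ube2c chr2:164769679-164769978 (plus strand), Ccnb2 chr9:70421505-70421804 (minus strand), 2810417H13Rik chr9:65890073-65890372 (plus strand), Mcm3 chr1:20820263-20820562 (minus strand), Mcm5 chr8:75109259-75109558 (plus strand) and H2afz chr3:137864237-137864536 (plus strand).
Mki67: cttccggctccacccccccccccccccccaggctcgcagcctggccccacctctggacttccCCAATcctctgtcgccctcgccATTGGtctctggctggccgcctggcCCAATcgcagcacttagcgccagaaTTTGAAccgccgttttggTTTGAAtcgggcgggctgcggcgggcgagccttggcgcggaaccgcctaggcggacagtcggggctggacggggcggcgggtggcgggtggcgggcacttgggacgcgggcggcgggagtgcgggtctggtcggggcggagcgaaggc
Ube2c: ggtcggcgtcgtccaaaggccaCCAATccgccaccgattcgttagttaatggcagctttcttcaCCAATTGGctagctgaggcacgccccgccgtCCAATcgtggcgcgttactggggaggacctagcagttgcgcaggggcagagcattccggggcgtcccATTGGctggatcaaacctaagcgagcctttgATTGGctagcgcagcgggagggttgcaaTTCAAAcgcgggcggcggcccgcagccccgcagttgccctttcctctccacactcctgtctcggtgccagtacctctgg
Ccnb2: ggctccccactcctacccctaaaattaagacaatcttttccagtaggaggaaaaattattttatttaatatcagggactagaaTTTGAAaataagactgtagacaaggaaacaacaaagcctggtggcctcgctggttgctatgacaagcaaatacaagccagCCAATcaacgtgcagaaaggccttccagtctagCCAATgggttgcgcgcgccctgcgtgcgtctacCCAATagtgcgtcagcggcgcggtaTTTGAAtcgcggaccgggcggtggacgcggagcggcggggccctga
2810417H13Rik: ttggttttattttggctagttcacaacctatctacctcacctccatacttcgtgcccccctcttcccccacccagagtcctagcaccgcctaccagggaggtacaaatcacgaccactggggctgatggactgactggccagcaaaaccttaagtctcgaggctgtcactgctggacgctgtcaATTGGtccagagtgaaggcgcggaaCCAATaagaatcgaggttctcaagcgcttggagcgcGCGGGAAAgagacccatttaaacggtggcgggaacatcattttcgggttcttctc
Mcm3: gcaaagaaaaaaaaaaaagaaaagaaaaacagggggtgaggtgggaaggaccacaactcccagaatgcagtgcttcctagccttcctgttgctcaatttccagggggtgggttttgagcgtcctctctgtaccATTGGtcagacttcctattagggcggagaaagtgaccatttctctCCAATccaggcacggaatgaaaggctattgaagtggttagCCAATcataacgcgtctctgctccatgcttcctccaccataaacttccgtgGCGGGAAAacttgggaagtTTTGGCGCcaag
Mcm5: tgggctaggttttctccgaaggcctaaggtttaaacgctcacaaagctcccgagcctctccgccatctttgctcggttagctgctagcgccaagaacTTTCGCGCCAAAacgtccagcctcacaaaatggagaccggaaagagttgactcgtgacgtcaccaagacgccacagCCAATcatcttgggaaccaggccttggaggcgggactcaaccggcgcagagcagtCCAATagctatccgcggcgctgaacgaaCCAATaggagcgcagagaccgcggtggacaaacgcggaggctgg
H2afz: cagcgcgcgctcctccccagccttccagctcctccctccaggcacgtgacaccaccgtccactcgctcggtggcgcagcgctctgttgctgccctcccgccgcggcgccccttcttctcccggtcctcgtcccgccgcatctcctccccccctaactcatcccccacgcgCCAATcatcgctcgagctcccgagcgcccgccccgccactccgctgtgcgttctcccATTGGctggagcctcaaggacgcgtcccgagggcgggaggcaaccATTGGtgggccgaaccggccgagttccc
In Mki67 the second CHR match begins 98 bases before the start, in Ube2c 29 bases before it. The Ube2c window has 6 CCAAT matches, all before the start. Ccnb2 has 3 CCAAT matches, 87, 54 and 21 bases before the start. The H2afz window has 3 CCAAT matches and none of the CHR or E2F letters.

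Replication genes differed modestly between the windows of reporter fluorescence. In all cells several of them were highest in GFPmed. For Rrm1, Rrm2, 2810417H13Rik, Mcm2, Mcm3, Mcm5 and Uhrf1 that peak shrank or was lost without the 13 erythroid-marker cells. Over the S-phase class the summed level was 752.5 [718.4, 787.8], 878.9 [842.6, 916.3] and 892.8 [854.4, 932.5] UPM. GFPlow lay below the other two, which overlapped. Without the erythroid-marker cells the sums were 721.9 [688.5, 756.6], 715.1 [682.2, 749.2] and 863.2 [825.3, 902.4] UPM, so that GFPmed was level with GFPlow and GFPhigh alone was higher. In all cells the median log2 ratio over the 15 members was 0.27 high-to-low, 0.40 medium-to-low and -0.13 high-to-medium, against 0.05, -0.03 and 0.08 over all 10113 genes. The 3 ratios share libraries and are not independent of each other. The high-to-low median was -0.10 with equal weight per cell and -0.019 without cells over 3 times the median UMIs. The summed levels were not recounted under those settings.

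Among the subunits of the Mcm2-7 helicase, which opens DNA at origins, the clearest step was that of Mcm6. Mcm6 (chr1:128331590-128359664) was at 66.1 [56.3, 77.1], 87.6 [76.4, 99.9] and 114.5 [101.0, 129.3] UPM, a high-to-low log2 ratio of 0.79 [0.50, 1.09]. Mcm7 was at 51.7, 60.9 and 79.3 UPM, a log2 ratio of 0.61 [0.28, 0.96]. Both were ordered as the windows are, with GFPhigh above GFPlow beyond the counting interval. Mcm5 was at 23.8, 41.4 and 37.4 UPM, with a high-to-low log2 ratio of 0.65 [0.15, 1.16]. Mcm2 (36.1, 47.8 and 41.4 UPM) and Mcm3 (32.4, 42.99 and 39.2 UPM) had ratios whose intervals held 0 in each pair of windows. Mcm4 went another way, at 82.5, 60.5 and 81.04 UPM, with a medium-to-low log2 ratio of -0.45 [-0.76, -0.14]. The 6 subunits form 1 complex, and in all cells their transcripts were not all highest in the same window. Without the cells with other-type markers all but Mcm4 were highest in GFPhigh. Mcm2 was then at 34.2, 39.8 and 42.4 UPM, Mcm3 at 30.8, 36.8 and 38.3 UPM and Mcm5 at 22.4, 32.2 and 36.9 UPM. The high-to-low intervals of Mcm2 and Mcm3 still held 0. Mcm4 was at 79.8, 52.04 and 78.4 UPM, still lowest in GFPmed.

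Pcna (chr2:132249162-132253314), the clamp that holds polymerases on DNA, had the most UMIs of the class and was level, at 285.7, 256.7 and 281.5 UPM, with a high-to-low log2 ratio of -0.02 [-0.18, 0.14]. The genes of deoxynucleotide synthesis were highest in GFPmed for ribonucleotide reductase. Its large subunit Rrm1 was at 36.9, 66.9 and 41.4 UPM, and its small subunit Rrm2 at 22.99, 39.01 and 23.8 UPM. The medium-to-low log2 ratio was 0.85 [0.48, 1.24] for Rrm1 and 0.76 [0.27, 1.26] for Rrm2, and that of GFPhigh over GFPmed was -0.69 [-1.07, -0.32] and -0.71 [-1.22, -0.22]. Without the erythroid-marker cells Rrm1 was at 35.9, 46.5 and 38.9 UPM and Rrm2 at 16.9, 10.1 and 15.5 UPM, so that Rrm2 was then lowest in GFPmed. Dut, which clears dUTP, was at 58.7, 66.5 and 68.7 UPM, and thymidine kinase Tk1 at 10.7, 14.7 and 17.6 UPM, with intervals of the ratio that held 0 in each pair. Tyms, thymidylate synthase, was at 13.1, 11.1 and 15.0 UPM, also within the counting error.

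2810417H13Rik (Pclaf, a PCNA-binding factor) was at 19.7 [14.5, 26.1], 52.5 [43.96, 62.3] and 33.5 [26.4, 41.9] UPM, without overlap between GFPlow and either of the others. Without the erythroid-marker cells it was at 16.1, 27.5 and 31.4 UPM, a high-to-low log2 ratio of 0.96 [0.38, 1.57], with GFPhigh and not GFPmed the highest. Lig1, the ligase that joins Okazaki fragments, was at 8.62, 23.5 and 12.3 UPM, with a medium-to-low log2 ratio of 1.42 [0.71, 2.24]. It stayed highest in GFPmed without those cells, at 7.84, 18.6 and 11.5 UPM. Uhrf1, which carries DNA methylation marks through replication, had 39 UMIs in all, at 3.28, 6.77 and 6.17 UPM. In GFPmed 10 cells held 94.9% of the UMIs of Rrm2, 91.7% of those of 2810417H13Rik and 54.8% of those of Rrm1, against 49.2% for Lig1.

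Mitotic genes other than Smc4 were low in each window, and the order of their sums turned on the erythroid-marker cells. The 18 members without Smc2 and Smc4 summed to 251.7 [232.1, 272.4], 305.3 [284.1, 327.7] and 311.4 [288.9, 335.2] UPM, lowest in GFPlow and alike in GFPmed and GFPhigh. Without the 13 erythroid-marker cells they summed to 189.8 [172.8, 207.9], 139.5 [125.1, 154.98] and 249.1 [228.9, 270.6] UPM, with GFPmed the lowest and GFPhigh the highest. These intervals did not overlap, but UMIs in 1 cell are not independent, so the intervals are too narrow. In GFPhigh 14 cells with at least 3 of these members and no other-type markers held 42.7% of the all-cell sum. Without such cells and other-type cells the sums were 106.4 [93.6, 120.4], 83.6 [72.3, 96.2] and 119.2 [105.1, 134.7] UPM, which that rule helps set. GFPlow then overlapped both other windows, and only GFPmed and GFPhigh stayed apart. In all cells the median log2 ratio over the 19 measured members was 0.22 high-to-low, 0.27 medium-to-low and -0.17 high-to-medium. Without the erythroid-marker cells the mitotic medians were 0.38, -0.39 and 0.86. The S-phase medians were then 0.31 high-to-low, the value of Mcm3, and 0.27 medium-to-low and 0.27 high-to-medium. The classes thus stayed near each other high-to-low. In the ratios with GFPmed they were near each other only with these cells in.

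Of the cyclins and their kinase, Ccna2 (cyclin A2) was at 18.5, 25.1 and 20.7 UPM, with a high-to-low log2 ratio of 0.16 [-0.46, 0.79]. Without the erythroid-marker cells it was at 11.96, 3.64 and 13.3 UPM, from 29, 9 and 30 UMIs, and lowest in GFPmed. Ccnb1 and Ccnb2 (cyclins B1 and B2) and Cdk1, the kinase they activate, had 50, 61 and 67 UMIs in all. In all cells the interval of their ratio held 0 in each pair of windows. Without the erythroid-marker cells Ccnb1 had 11, 7 and 10 UMIs, Ccnb2 21, 7 and 14 and Cdk1 16, 5 and 14. Mki67, which coats mitotic chromosomes and is the standard marker of proliferation, was at 28.7 UPM [22.4, 36.3], 30.25 [23.8, 37.9] and 24.2 [18.25, 31.5], so that its intervals overlapped in all windows. Without the erythroid-marker cells it was at 18.6, 14.15 and 15.04 UPM. Top2a, the topoisomerase that untangles chromosomes, was highest in GFPmed, at 20.5, 37.8 and 21.1 UPM, with log2 ratios of 0.87 [0.37, 1.41] medium-to-low and -0.83 [-1.37, -0.32] high-to-medium. Without the erythroid-marker cells it was nearly level, at 16.5, 19 and 17.7 UPM.

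Ube2c, the ubiquitin-conjugating enzyme of the anaphase-promoting complex, was at 27.5 [21.3, 34.9], 33.4 [26.7, 41.4] and 48.01 [39.4, 57.9] UPM, a high-to-low log2 ratio of 0.80 [0.35, 1.265]. In GFPhigh 1 cell, which also had 2262 UMIs of erythroid markers, held 30 of its 109 UMIs. The step was larger without the erythroid-marker cells, at 16.1, 12.5 and 34.95 UPM, a log2 ratio of 1.11 [0.55, 1.71], and was 1.10 [0.54, 1.70] without all cells with other-type markers. Few cells carry the Ube2c UMIs: in GFPhigh 10 of all cells held 77.98% of them, so the intervals are too narrow. With cells of at least 3 different mitotic members also left out, a rule that Ube2c helps set, its ratio was -0.10 [-0.98, 0.75]. Cenpa, the centromeric histone H3 variant, was at 51.3, 46.6 and 77.96 UPM, with log2 ratios of 0.60 [0.26, 0.95] high-to-low and 0.74 [0.40, 1.09] high-to-medium. Cenpa was thus higher in GFPhigh than in both other windows. Tpx2, a spindle assembly factor, was at 4.93, 5.97 and 11.01 UPM, with a high-to-low log2 ratio of 1.13 [0.11, 2.29] from 52 UMIs in all. Birc5 (survivin), of the chromosomal passenger complex, was at 14.8, 17.5 and 17.2 UPM, and Cks2, a partner of cyclin-dependent kinases, at 16.8, 26.7 and 22.9 UPM. Without the erythroid-marker cells Birc5 was at 8.66, 5.255 and 14.2 UPM and Cks2 at 15.3, 10.9 and 19.9 UPM. Both were then lowest in GFPmed and highest in GFPhigh, with high-to-low intervals that held 0. Aurkb, the kinase of the same passenger complex, was at 6.98, 6.77 and 3.96 UPM, a log2 ratio of -0.78 [-2.16, 0.43] that counting error does not tell from 0. Without the cells with other-type markers it had 16, 4 and 3 UMIs, and the ratio was -2.13 [-4.73, -0.50]. Few cells carry this: over all cells Aurkb had UMIs in 9, 6 and 3 cells, so the interval is too narrow. With cells of at least 3 different mitotic members also left out, a rule that Aurkb helps set, it had 5, 0 and 0 UMIs. The interval then held 0.

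Smc4 (chr3:69004738-69034623), a core subunit of condensin, was unlike its class. It was at 589.1 [559.0, 620.4], 837.1 [801.7, 873.6] and 1073.0 [1030.8, 1116.4] UPM. The 3 windows did not overlap, and the high-to-low log2 ratio was 0.86 [0.77, 0.96]. It had 5974 of the UMIs of the list, in 2941 cells. Its partner Smc2 was at 27.5, 22.7 and 40.96 UPM, with a log2 ratio of 0.57 [0.11, 1.05]. UMI levels are compared here without length scaling because each UMI tags a transcript at its 3′ end; capture still differs between genes, so levels of different genes are not ranked.

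The broadly expressed class held the largest high-to-low ratio of the list, that of H2afz. H2afz (chr3:137864487-137866922), the histone variant H2A.Z found at promoters and enhancers, was at 477.0 [450.0, 505.3], 650.0 [618.9, 682.3] and 1089.2 [1046.7, 1133.0] UPM. These were fully separated, with a high-to-low log2 ratio of 1.19 [1.09, 1.29]. The genes of the tubulin dimer were also highest in GFPhigh. Tuba1b was at 348.1, 407.2 and 503.0 UPM, a log2 ratio of 0.53 [0.40, 0.66], and Tubb5 at 525.1, 474.1 and 637.3 UPM, a log2 ratio of 0.28 [0.17, 0.39].

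Stmn1, a tubulin-binding protein, was at 41.1, 44.6 and 62.5 UPM, a log2 ratio of 0.61 [0.23, 0.99], and Cks1b at 15.6, 20.3 and 23.3 UPM, a ratio of 0.58 [-0.05, 1.22]. Hmgb2, a chromatin protein of proliferating cells, was highest in GFPlow and lowest in GFPmed. It was at 239.8, 178.7 and 200 UPM, a log2 ratio of -0.26 [-0.44, -0.08]. H2afx, the variant phosphorylated at DNA breaks, was at 62.4, 68.9 and 65.2 UPM and level within counting error. The class median was 0.53 high-to-low, 0.14 medium-to-low and 0.30 high-to-medium.

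**Figure D1:**
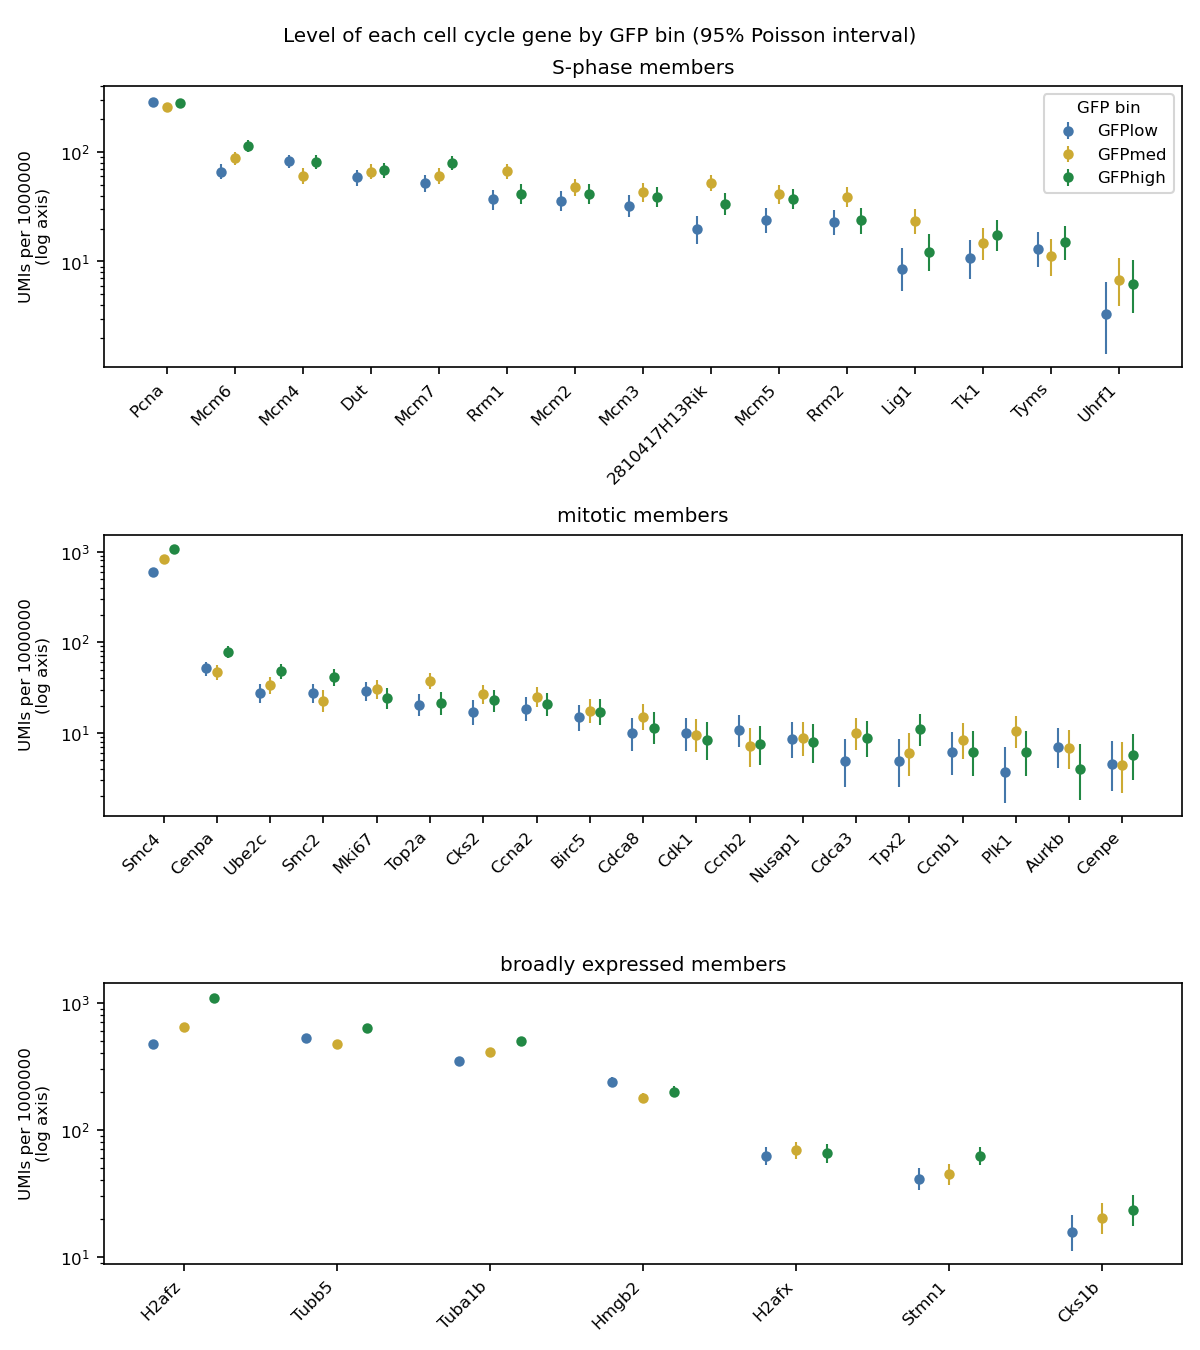
Level of each of the 41 cell cycle genes with at least 20 UMIs, in UMIs per 1000000 of the library on a log axis, by GFP bin; bars are 95% Poisson intervals for counting error. Smc4 and H2afz step up from GFPlow to GFPhigh without overlap, whereas most mitotic members lie below 50 UPM with overlapping bars.

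Counted by size, 14 of 41 members were at least 1.5-fold higher in GFPhigh than in GFPlow, beside 12.8% of all genes, and 1 was at least 1.5-fold lower, beside 8.45%. The 14 were Mcm5, Mcm6, Mcm7, Tk1, 2810417H13Rik and Uhrf1 of the S-phase class, Ube2c, Cdca3, Cenpa, Plk1, Tpx2 and Smc4 of the mitotic class, and Stmn1 and H2afz; the lower one was Aurkb. For GFPmed over GFPlow 11 were higher, beside 8.63% of all genes, and 0 lower, beside 8.23%. For GFPhigh over GFPmed 4 were higher (Cenpa, Tpx2, Smc2 and H2afz), beside 10.8%, and 7 lower (Rrm1, Rrm2, 2810417H13Rik, Lig1, Top2a, Aurkb and Plk1), beside 6.87%. The background has many genes with as few UMIs as these members, whose ratios can pass 1.5-fold within their counting error, and at least 1.5-fold is here a size and not a test. The interval of the high-to-low ratio left out 0 in 14 members, 4 S-phase, 5 mitotic and 5 broadly expressed. The same counts changed with the cells used and their weight. Without the cells with markers of other types, the medium-to-low count became 3 higher and 11 lower, and the high-to-medium count 21 higher and 1 lower. The high-to-low count was then 17 higher and 1 lower. It was 7 higher and 4 lower with equal weight per cell, and 7 and 6 without cells over 3 times the median UMIs. The shares over all genes were not recounted under these settings.

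**Figure D2:**
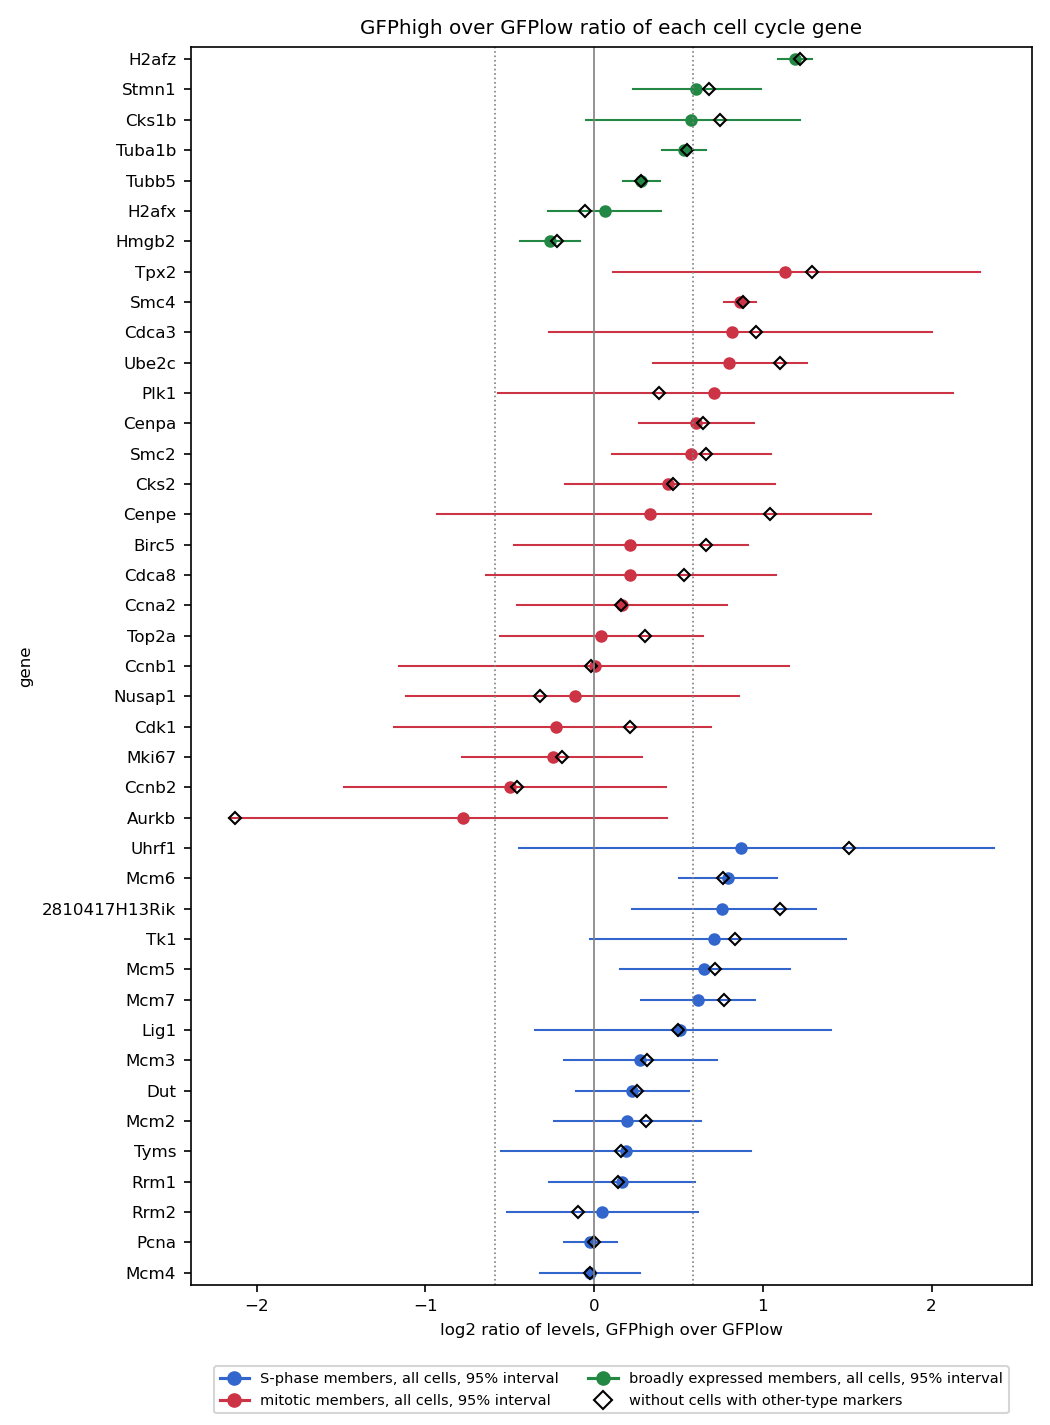
Log2 ratio of the level in GFPhigh over GFPlow for the 41 genes, grouped by class; filled points are all cells with 95% intervals for counting error, open diamonds leave out the cells with markers of other cell types, and dotted lines mark 1.5-fold. H2afz (1.19) and Smc4 (0.86) have the narrowest intervals away from 0, and their diamonds lie at 1.22 and 0.88.

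The UMIs of mitotic genes sat in few cells. If the UMIs of a gene were spread over cells in proportion to their depth, a computable number of cells would have at least 1 of them; the observed number over that number was 0.884 at the median of all 10113 genes, 0.744 for S-phase members, 0.421 for mitotic members and 0.713 for broadly expressed members. Without the erythroid-marker cells the members' medians were 0.805, 0.611 and 0.747. In all cells it was under 0.5 in 11 of 19 mitotic members, 2 of 15 S-phase members (Rrm2 and 2810417H13Rik), 1 of 7 broadly expressed members (Stmn1) and 1.06% of all genes. The ratio depends on the number of UMIs, so genes of like number are the better background: of genes with 100 to 499 UMIs 0.823% were under 0.5, against 8 of 21 members, and of genes with 20 to 99 UMIs 1.83%, against 6 of 12 members.

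Ccna2 was the extreme, with its UMIs in 40 cells, where an even spread would give 152.1 cells. Mki67 had UMIs in 69 cells, against 196.3 for an even spread, and Nusap1, a spindle protein, 61 UMIs in 21 cells. 2810417H13Rik had UMIs in 74 cells, against 246.5, and 39 UMIs came from 1 GFPmed cell, and Rrm2 had UMIs in 73 cells, against 202.3, with 34 from 1 GFPmed cell. At the other end stood Smc4, in 2941 cells (ratio 0.886), H2afz, in 2453 cells (0.802), and Cenpa (0.760). Among S-phase members Pcna was in 1068 cells and Mcm6 in 464, with ratios of 0.665 and 0.782. Further mitotic genes, which are not members, had a median ratio of 0.705, and 1 of 31 (Spc25) was under 0.5.

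**Figure D3:**
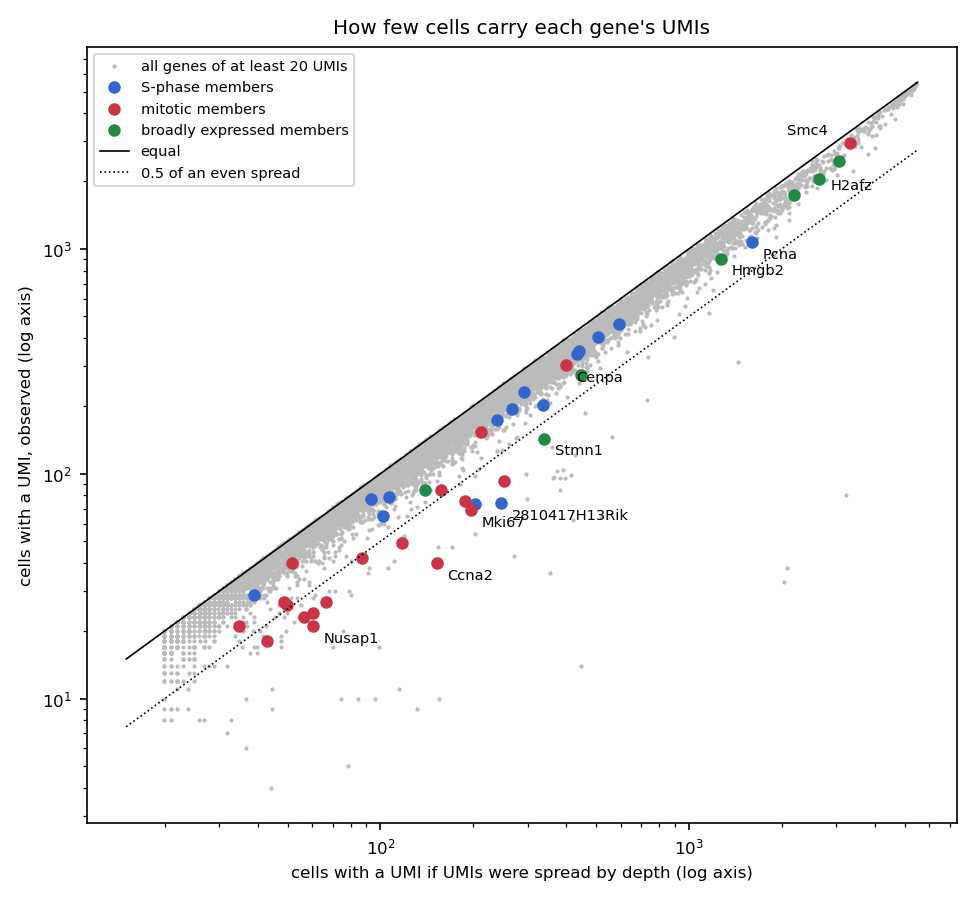
Cells with a UMI of each gene against the number that a spread by depth would give, both on log axes; grey points are all 10113 genes with at least 20 UMIs, the solid line is equality and the dotted line 0.5 of it. Most mitotic members lie near or under the dotted line (Ccna2 40 cells against 152.1), while Smc4 and H2afz lie with the bulk of genes.

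A cell with UMIs of at least 3 different members of the mitotic class (without Smc2 and Smc4) was called a mitotic-gene cell. There were 38 such cells. GFPlow had 12 (0.565% [0.292, 0.985] of its cells), GFPmed 10 (0.651% [0.312, 1.19]) and GFPhigh 16 (0.901% [0.516, 1.46]). The intervals overlapped. A spread of each member's UMIs by depth would put 7.17, 25.1 and 16.4 cells in the call, so it alone does not exceed that number in GFPmed or GFPhigh. With at least 4 members there were 10, 9 and 15 cells, against 0.569, 4.45 and 2.205. The 38 cells had 2.08% of all UMIs and 64.8% of the UMIs of mitotic members without Smc2 and Smc4, and 20.4% of the UMIs of S-phase members. Of the mitotic members, Nusap1 had 96.7% of its UMIs there, Cdca3 96.5%, Ccna2 93.5% and Mki67 76.6%, against 19.8% for Cenpa and 1.79% for Smc4. Members that define the call are high in these cells by construction. The cells were deep, at a median of 3273.5 UMIs, and 16 of the 38 were among the 40 cells over 3 times the median depth of their window. Whether some are doublets was not tested.

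Of the 38 cells 13 had other-type markers, and 11 of these were erythroid-marker cells. The 13 erythroid-marker cells of the whole series had 0.840% of all UMIs but 34.5% of the UMIs of mitotic members without Smc2 and Smc4: 25.0% of those of GFPlow, 55.02% of those of GFPmed and 20.4% of those of GFPhigh. They held 9.86% of S-phase UMIs, 4.53%, 19.9% and 3.75% from GFPlow to GFPhigh. The pair of deepest GFPmed cells, with 15387 and 12670 UMIs, held 2100 and 1883 erythroid UMIs and 0 UMIs of the T cell markers Cd3e, Cd3d, Cd3g, Lck and Cd4, and each had UMIs of all 15 S-phase members and all 18 mitotic members. Every cell had been sorted as positive for TCRb, CD4 and the Foxp3 reporter. Where the erythroid transcripts came from was not tested. The threshold of 10 erythroid UMIs was chosen after the data were seen. Without these 13 cells the median medium-to-low log2 ratio went from 0.27 to -0.39 for mitotic members and from 0.40 to 0.27 for S-phase members, and that of GFPhigh over GFPmed from -0.17 to 0.86 and from -0.13 to 0.27.

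**Figure D4:**
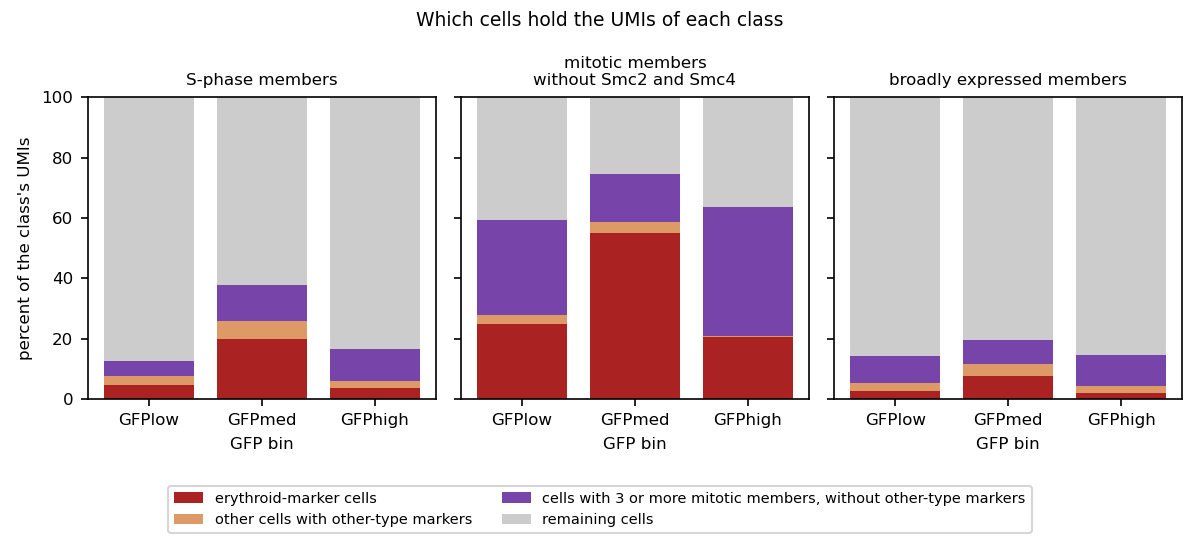
Percent of the UMIs of S-phase members, mitotic members without Smc2 and Smc4, and broadly expressed members held by 4 kinds of cells in each GFP bin: erythroid-marker cells, other cells with other-type markers, cells with 3 or more mitotic members and no other-type markers, and the remaining cells. In GFPmed 6 erythroid-marker cells hold 55.02% of the UMIs of mitotic members without Smc2 and Smc4, and the remaining cells hold 62.3% to 87.4% of the S-phase UMIs but 25.4% to 40.8% of the UMIs of these mitotic members.

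The 25 mitotic-gene cells without other-type markers had the transcripts of T cells. T cell markers were found in 24 of the 25, at 2038 UPM against 2444 in the 5247 remaining cells, and erythroid markers at 0 UMIs. Treg markers were found in 20 of the 25, at 1511 UPM against 1708, and Ikzf2 alone made up 881.5 UPM of the former and 600.9 of the latter. The Treg marker Il2ra was lower, at 125.9 UPM [62.9, 225.3] against 409.3 [394.3, 424.8]. Its intervals were apart within GFPmed (127.8 [34.8, 327.2] against 391.5) and GFPhigh (159.2 [58.4, 346.4] against 521.3), but not within GFPlow. Foxp3 itself was lower, at 160.3 UPM [87.6, 268.9] against 363.7 [349.5, 378.3], with the intervals apart within GFPhigh (106.1 [28.9, 271.7] against 373.8) but not within GFPlow or GFPmed. The Treg factor Ikzf2 was higher within GFPlow, at 1035 UPM [623.2, 1616.5] against 506.8, and GFPmed, at 926.5 [620.5, 1331] against 520.1, but not within GFPhigh, at 769.2 [515.2, 1105] against 790.7. GFPlow had 6 of them (0.289% [0.106, 0.628] of its cells without other-type markers), GFPmed 5 (0.341% [0.111, 0.793]) and GFPhigh 14 (0.810% [0.444, 1.36]). GFPhigh had the highest share, and its interval overlapped the others. After each cell was thinned to 500 UMIs the counts were 3, 2 and 10 cells.

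In these 25 cells the S-phase members were at 6525 UPM [6000, 7083.5], against 682.5 [663.0, 702.4] in the remaining cells. Stmn1 was at 1660 against 23.1 UPM, Hmgb2 at 2885 against 160.7, Tubb5 at 3182 against 502.5, Tuba1b at 3079 against 369.0 and H2afz at 2873 against 697.7 UPM, all without overlap. Smc4 was the exception, at 755.5 UPM [584.3, 961.2] against 839.1 [817.5, 861.1]. The windows differed for it: it was at 980.7 [581.2, 1550] against 588.1 in GFPlow, 255.6 [110.3, 503.6] against 859.3 in GFPmed and 1061 [758.0, 1445] against 1091 in GFPhigh, from 18, 8 and 40 UMIs in the mitotic-gene cells. It was thus below the remaining cells in GFPmed, and its intervals overlapped in the other windows. Smc2 was higher, at 274.7 UPM against 23.7 over all windows. In 3 of the 25 cells there was no S-phase UMI.

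Nr4a1 was not counted in any of the 38 mitotic-gene cells. Over the 25 without other-type markers, 0 UMIs allow up to 34.3 UPM, against 153.1 UPM in the remaining cells. Within GFPhigh the 14 cells allow up to 79.6 UPM, against 354.3 [329.6, 380.3] in the remaining 1714. In all, Nr4a1 had a UMI in 404 cells. Among the remaining cells 387 of 5247 had one, and 240 of the 1714 in GFPhigh. The limits take UMIs as independent, so they are too low for a gene held by few cells. That none of 25 or of 14 cells had a UMI does not show a lower Nr4a1 level, which was not tested.

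S-phase and mitotic members marked overlapping but not equal sets of cells. Cells with at least 5 different S-phase members, a gate added after the data were seen, numbered 10, 15 and 28 from GFPlow to GFPhigh, and 4, 9 and 26 without other-type markers. Their shares without other-type markers were 0.193% [0.0525, 0.493], 0.613% [0.281, 1.16] and 1.505% [0.985, 2.20], so GFPhigh was above GFPlow without overlap. Of these 39 cells 14 were also mitotic-gene cells and 25 were not, 19 of the 25 being in GFPhigh, and 11 mitotic-gene cells did not meet the S-phase gate. Median depth was 3557 UMIs in the S-phase gate. Over all cells, a spread of each member's UMIs by depth would put 2.175, 19.99 and 11.29 cells in this gate, against the 10, 15 and 28 counted. After thinning to 500 UMIs the S-phase gate kept 1, 1 and 3 cells without other-type markers, too few to order the windows.

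In the 5247 remaining cells, outside the mitotic call and without other-type markers, the step of H2afz and Smc4 was as large as in all cells. Cells that met the S-phase gate alone, 1, 5 and 19 from GFPlow to GFPhigh, were kept among the 5247. No ratio was recounted without them. H2afz was at 459.6, 601.2 and 1061.5 UPM, a high-to-low log2 ratio of 1.21 [1.10, 1.31], and Smc4 at 588.1, 859.3 and 1090.7 UPM, a ratio of 0.89 [0.79, 0.99]. Mcm6 (65.1, 72.5 and 108.1 UPM), Mcm7 (44.7, 47.2 and 74.7 UPM) and Cenpa (40.9, 39.02 and 64.5 UPM) also kept ratios with intervals above 0, of 0.73 [0.43, 1.04], 0.74 [0.38, 1.11] and 0.66 [0.27, 1.05]. Stmn1 was at 15.3, 18.4 and 36.6 UPM, a ratio of 1.25 [0.67, 1.87]. Tuba1b kept 0.52 [0.38, 0.66] and Hmgb2 kept -0.37 [-0.58, -0.16].

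Among S-phase members, 2810417H13Rik was at 6.38, 4.72 and 10.7 UPM in those cells, with a high-to-low log2 ratio of 0.72 [-0.26, 1.78], close to the 0.76 of all cells but from fewer UMIs. Rrm1 was at 33.2, 31.3 and 31.1 UPM and Rrm2 at 10.6, 3.00 and 9.28 UPM, with no peak in GFPmed, whereas Lig1 stayed highest in GFPmed, at 7.24, 14.6 and 10.2 UPM. Cenpa, Ube2c and Mki67 are among the mitotic members that define the cells left out, so that rule sets part of their level here. Ube2c was at 11.5, 9.01 and 10.7 UPM, and Mki67 at 10.6, 4.72 and 2.78 UPM. With only the other-type cells left out, the log2 ratio of Mki67 was -0.19 [-0.89, 0.49]. Summed over these cells, S-phase members were at 681.7 [648.8, 716.0], 589.6 [558.8, 621.6] and 783.7 [746.8, 822.0] UPM, with GFPmed the lowest. Mitotic members without Smc2 and Smc4, which the same rule bears on, were at 106.4, 83.6 and 119.2 UPM.

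After thinning, shares of cells with a UMI gave the same order for the members in many cells. From GFPlow to GFPhigh, H2afz was found in 19.3% [17.65, 21.1], 21.8% [19.75, 23.95] and 36.2% [33.9, 38.45] of cells, and in 35.4%, 47.2% and 54.9% without thinning. Smc4 was found in 24.6% [22.8, 26.5], 33.4% [31.02, 35.8] and 39.7% [37.4, 42.04], and in 42.1%, 61.2% and 62.4% without thinning. Within a window neither gene differed beyond counting error between cells with and without a Nr4a1 UMI: in GFPhigh, among the remaining cells, H2afz was at 1113 UPM [1002, 1234] in 240 cells with one and 1052 [1006, 1100] in 1474 without, and Smc4 at 1031 [924.0, 1147] and 1101.5 [1054, 1151]. Mcm7 did differ in GFPhigh, at 33.6 UPM [16.8, 60.04] in cells with a Nr4a1 UMI and 82.04 [69.4, 96.3] in cells without, a log2 ratio of -1.23 [-2.32, -0.41]. In GFPmed its ratio was -1.44 [-3.96, -0.07], from 3 UMIs in cells with a Nr4a1 UMI, and in GFPlow 0.53 [-1.98, 1.91]. Tubb5 in GFPhigh was at 488.1 and 598.9 UPM, a ratio of -0.29 [-0.54, -0.05]. These were the ratios whose intervals left out 0 among 14 genes in 3 windows, and they were named after the values were seen.

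Cell cycle genes outside the list were counted from further lists, to be read beside the 12.8% of all genes that were at least 1.5-fold higher in GFPhigh than in GFPlow and the 8.45% that were lower. All counts and ratios of the further lists use all cells. They were not recounted without the erythroid-marker cells or the mitotic-gene cells. Of genes that control entry into S phase 3 of 14 were higher (21.4%) and 1 lower (7.14%). E2f3, an activating E2F, was at 4.52, 5.175 and 15.4 UPM, a log2 ratio of 1.73 [0.76, 2.90], Myc at 114.5, 152.1 and 196.0 UPM, a ratio of 0.77 [0.56, 0.996], and Rb1, which holds E2F in check, at 44.3, 41.4 and 61.7 UPM, a ratio of 0.47 [0.10, 0.85]. Of 13 inhibitors of the cycle 2 were higher (15.4%, beside 12.8% of all genes) and 1 lower (7.69%, beside 8.45%), so both shares were near the background. Cdkn1a (p21), named after its values were seen, had the highest ratio of them, 2.91 [1.11, 6.35], from 2, 5 and 17 UMIs. Cdkn1b (p27), which keeps T cells quiescent, was at 173.2, 123.4 and 129.5 UPM, a log2 ratio of -0.42 [-0.64, -0.20], the stress gene Gadd45b at 16.8, 12.7 and 35.2 UPM, a ratio of 1.06 [0.51, 1.65], and Gadd45a at 8.62, 10.7 and 6.61 UPM. Of the genes named here, Myc and E2f3, which promote division, were above their GFPlow level in GFPhigh beyond counting error. So were the brakes Rb1, Gadd45b and Cdkn1a, while the brake Cdkn1b was below it. The inhibitor list as a whole was not raised: 5 of its 13 genes lay above 0 and 8 below. Its median log2 ratio was -0.20, against 0.05 over all genes, and its summed ratio was 0.03 [-0.03, 0.08].

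Of 30 further replication genes 7 were higher (23.3%, beside 12.8% of all genes) and 0 lower (beside 8.45%). The clamp loader subunit Rfc4 was at 8.21, 9.155 and 18.1 UPM, a log2 ratio of 1.12 [0.33, 1.99], the histone chaperone Asf1b had a ratio of 1.08 [0.29, 1.95] and the polymerase subunit Pold1 of 1.025 [0.07, 2.09]. Of 31 further mitotic genes 13 were higher (41.9%, beside 12.8%) and 3 lower (9.68%, near the 8.45% of all genes), with ratios of -1.21 [-1.62, -0.82] for the phosphatase Cdc25b (76.8, 44.98 and 33.03 UPM), 1.15 [0.40, 1.97] for the spindle motor Kif11 and -0.98 [-1.65, -0.35] for Racgap1, of cytokinesis. The summed log2 ratio of that list was -0.02 [-0.13, 0.09].

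Of 15 further histone and HMG genes 4 were higher (26.7%, beside 12.8% of all genes) and 0 lower (beside 8.45%). Hist1h2ae was at 32.02, 76.4 and 59.02 UPM, Hmgn1 at 109.6, 147.3 and 174.9 UPM, and Hist1h2bc at 6.57, 11.5 and 11.9 UPM. The UMIs of Hist1h2ae sat in few cells, under 0.5 of the number that an even spread would give. Of 9 further tubulin and stathmin genes 1 was higher (11.1%, under the 12.8% of all genes) and 0 lower, Tubb2b at 9.44, 16.7 and 24.7 UPM, a log2 ratio of 1.37 [0.66, 2.15]; Tubb2a had a ratio of 0.46 [-0.08, 1.01] and Tuba1c of 0.36 [0.15, 0.56]. Another coding gene overlaps 9 members, with 1 (Tuba1b) on the same strand as the other gene, and 4 members (Pcna, Tyms, Ccnb1 and Ccnb2) have pseudogenes of their name in GENCODE M21. How reads shared between such copies were counted is not given in the sources used here, so the levels of these genes and of the tubulins and histones, which have near-identical relatives, are less certain.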

How the data were processed

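Each deposited sample is 1 cell, and the authors deposited 1 table of raw counts, UMIs of each gene in each cell, checked to be whole numbers. Per the submitters' processing notes TopHat2, SAMtools and mm10 were used; versions, annotation, counting program and UMI rule are not given in the sources used here. Columns were grouped by their names, which match the labels, and 0 columns stayed out.

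The minimum was 500 UMIs for a cell; counts were summed per bin and scaled to 1000000, and 0.5 UMI was added before log2 ratios (Python 3.11.15, NumPy 2.4.6, SciPy 1.17.1). Each bin is 1 library of 2270376 to 2512277 UMIs, in which a count of 0 allows up to 1.19 to 1.32 UPM (3 counts), so precision is set by counting error and variation between mice cannot be seen. UMIs in 1 cell are not independent, so intervals of genes held by few cells are too narrow. No doublets were removed. Other-type cells had 2 or more UMIs of marker genes, without Cd74, Cst3, Xbp1, Car2 and Fcer1g. Thinning drew 500 UMIs per cell. edgeR 4.0.16 gave TMM factors as an alternative scaling only.

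Named genes were members with at least 100 UMIs, the 5 of each class with most UMIs, and 3 per further list that differed most, in either direction, between GFPhigh and GFPlow among those with at least 50 UMIs; other members named were picked after their values were seen. Members and lists were chosen with earlier results of these data known. The script was tested on simulated data.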

Additional observations from a re-analysis of the deposited data

Results flagged for a closer look

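Cells with fewer than 500 UMIs, which no comparison used, also held UMIs of the 42 genes. In the 249 GFPlow cells of this kind the genes summed to 3118 UPM, in the GFPmed cells to 2633 UPM and in the 277 GFPhigh cells to 4153 UPM. A count of 0 would allow 29.4, 55.6 and 26.3 UPM there. GFPhigh was the highest, as it was among the cells used.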

How the results depend on the processing

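No paired analysis was possible because each bin is 1 library with no replicate, and no replicate could be left out. Of 492 ratios of single members under alternative settings 465 stayed inside the counting interval of the main ratio and 25 left it. Another 2 changed sign where that interval left out 0. Changes of sign inside an interval that held 0 are counted as staying. Of the class medians 78 stayed within the counting error of the class's summed ratio, whether or not the sign changed. Beyond that error, 21 moved with the same sign and 30 changed sign. Of 72 counts of members 41 stayed within 1.5 times and 31 did not. The cause of these shifts was not tested. Values that changed follow, as median log2 ratios and as counts of members at least 1.5-fold higher or lower. The shares of all genes at least 1.5-fold higher or lower were not recounted under these settings, so the counts have no background beside them. With equal weight per cell, the medians were, for GFPhigh over GFPlow -0.10 (S-phase), 0.36 (broadly expressed), for GFPmed over GFPlow 0.0049 (S-phase), -0.39 (mitotic), 0.018 (broadly expressed), for GFPhigh over GFPmed 0.12 (S-phase), 0.41 (mitotic). This gave, for GFPhigh over GFPlow 7 higher and 4 lower, for GFPmed over GFPlow 2 higher and 9 lower, for GFPhigh over GFPmed 11 higher and 2 lower. Without cells over 3 times the median UMIs, the medians were, for GFPhigh over GFPlow -0.019 (S-phase), 0.054 (mitotic), 0.33 (broadly expressed), for GFPmed over GFPlow -0.16 (S-phase), -0.64 (mitotic), -0.18 (broadly expressed), for GFPhigh over GFPmed 0.38 (S-phase), 0.48 (mitotic), 0.39 (broadly expressed). Counts of members were, for GFPhigh over GFPlow 7 higher and 6 lower, for GFPmed over GFPlow 1 higher and 16 lower, for GFPhigh over GFPmed 13 higher and 1 lower. Without cells with other-type markers, the medians were, for GFPhigh over GFPlow 0.47 (mitotic), for GFPmed over GFPlow 0.22 (S-phase), -0.42 (mitotic), -0.066 (broadly expressed), for GFPhigh over GFPmed 0.45 (S-phase), 0.96 (mitotic), 0.43 (broadly expressed). The counts became, for GFPmed over GFPlow 3 higher and 11 lower, for GFPhigh over GFPmed 21 higher and 1 lower. Without mitotic-gene cells, the medians were, for GFPhigh over GFPlow -0.035 (mitotic), 0.40 (broadly expressed), for GFPmed over GFPlow -0.078 (S-phase), -0.26 (mitotic), for GFPhigh over GFPmed 0.47 (S-phase), 0.14 (mitotic). This gave, for GFPhigh over GFPlow 6 lower, for GFPmed over GFPlow 2 higher and 8 lower, for GFPhigh over GFPmed 13 higher. The log2 ratio of Ube2c for GFPhigh over GFPlow was then -0.054. Without erythroid-marker cells, the medians were, for GFPhigh over GFPlow 0.38 (mitotic), for GFPmed over GFPlow 0.27 (S-phase), -0.39 (mitotic), -0.086 (broadly expressed), for GFPhigh over GFPmed 0.27 (S-phase), 0.86 (mitotic), 0.46 (broadly expressed). Counts of members were, for GFPmed over GFPlow 2 higher and 8 lower, for GFPhigh over GFPmed 20 higher and 1 lower. Without both other-type and mitotic-gene cells, the medians were, for GFPhigh over GFPlow 0.048 (mitotic), 0.26 (broadly expressed), for GFPmed over GFPlow -0.084 (S-phase), -0.33 (mitotic), for GFPhigh over GFPmed 0.52 (S-phase), 0.24 (mitotic). The counts became, for GFPhigh over GFPlow 6 lower, for GFPmed over GFPlow 2 higher and 10 lower, for GFPhigh over GFPmed 15 higher. The log2 ratio of Ube2c for GFPhigh over GFPlow was then -0.10. In cells of at least 1000 UMIs, the medians were, for GFPhigh over GFPlow 0.47 (S-phase), for GFPmed over GFPlow 0.51 (S-phase), -0.079 (mitotic), for GFPhigh over GFPmed 0.0896 (S-phase), 0.0049 (mitotic), 0.40 (broadly expressed). This gave, for GFPhigh over GFPlow 2 lower, for GFPmed over GFPlow 1 lower, for GFPhigh over GFPmed 3 lower. With TMM scaling, the medians were, for GFPhigh over GFPmed 0.23 (broadly expressed). With scaling that left out ribosomal protein genes, the medians were, for GFPmed over GFPlow 0.22 (broadly expressed), for GFPhigh over GFPmed 0.24 (broadly expressed). Mitotic-gene cells were 0.289% of GFPlow without other-type cells and 0.283% after thinning, and with a gate of 2 members 1.27%, 1.56% and 2.03% of GFPlow, GFPmed and GFPhigh. S-phase gate cells were 0.193% of GFPlow without other-type cells, and with a gate of 3 members 2.78%, 3.84% and 4.90%. After thinning, the median of cells over an even spread was 0.935 (S-phase), 0.884 (mitotic) and 0.889 (broadly expressed) over all 41 members, and 0.931, 0.893 and 0.889 over the 14, 9 and 7 members that kept 20 UMIs, against 0.946 over all genes that did, a ratio that nears 1 with fewer UMIs by construction. Counting only bases before the start left E2F letters in 4 S-phase and CHR letters in 6 mitotic windows. At this depth, members under 100 UMIs other than Tpx2 and Plk1 had ratio intervals that held 0 in each pair of bins.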
